A study of Homo sapiens with 5 samples.

Results

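The genes described here are 10 members of the AP-1 family and of the immediate early genes, FOS, FOSB, FOSL1, FOSL2, JUN, JUNB, JUND, ATF3, EGR1 and IER2. They were taken by their symbols from the 25343 genes of the count table, with no filter on their values, and all 10 were found. The list was chosen with earlier results of these data known. AP-1 is a dimer of basic leucine zipper proteins in which a Jun protein pairs with another Jun, with a Fos protein or with ATF3, and it binds short sites in promoters and enhancers. Immediate early genes are transcribed within minutes of a stimulus such as serum, a growth factor or stress, without need of new protein synthesis, because the factors that switch them on are already in the cell. Their mRNAs are short-lived. YAP is the coactivator that the Hippo pathway restrains, TEAD4 is a DNA-binding partner of YAP, and TEAD and AP-1 sites lie close together in many enhancers of epithelial cancer cells.

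RNA was sequenced from H157, an established human lung carcinoma line, grown in RPMI-1640 medium with serum and collected in mid-log growth. There were 5 stable lines with 1 library each, namely an empty-vector control (vector), YAP alone (YAP), YAP plus the full-length TEAD4 protein (YAP/TEAD4-FL, labelled YAP-TEAD434 and called the TEAD4-FL library below), YAP with the short TEAD4 isoform (YAP/TEAD4-S, labelled YAP-TEAD305 and called TEAD4-S) and YAP plus RBM4, a splicing factor (YAP/RBM4). TEAD4-S lacks the N-terminal DNA-binding part of the protein and keeps the part that binds YAP. The labels name the control after pCDNA, whereas the methods describe pCDH lentiviral vectors with puromycin selection for stable lines, and which of the vectors the control carried was not settled. The sources used here do not say whether a line is 1 clone or a pool. With 1 library per line no spread between cultures could be measured and no test between lines was possible, so each ratio is given with an exact 95% interval that covers counting error only. In bulk RNA, fewer cells that express a gene and less of its RNA per cell cannot be told apart.

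The values deposited were expected counts per gene, which summed to between 1399452 in the YAP library and 3015173 in the TEAD4-S library. They were scaled to counts per 1000000 of the library total (CPM). The 50 most abundant genes took 46.2% of the counts in TEAD4-S and 32% to 34.5% in the other libraries, and the median log2 ratio of all genes was -0.29 for TEAD4-S against vector. Levels of the introduced genes were checked first. YAP1 was 1.79 to 4.1 times its vector level in the other 4 libraries, lowest with TEAD4-S, and TEAD4 was 32.3 times with TEAD4-FL and 13.4 times with TEAD4-S. RBM4 was 1.12 times its vector level (0.965 to 1.29) for the library labelled YAP/RBM4, an interval that includes 1. In these counts only its label therefore sets that library apart as the RBM4 line. The paper states that western blots were used to check transgene expression in its stable lines. Among epithelial markers KRT8, KRT18 and CDH1 were detected at means of 504, 177 and 100 CPM, whereas KRT19 and EPCAM were below 1 CPM on average, as were the 5 squamous markers tested and 3 of 4 lung adenocarcinoma markers (NKX2-1, NAPSA and SFTPC), the other, SFTPB, having a mean of 26.6 CPM. PTPRC, LYZ and PECAM1 stood at means of 227, 130 and 125 CPM while CD3E and VWF were at 0 in every library. Of 5 fibroblast markers COL1A2 and DCN were at 0. COL1A1 stood at 3.1 to 14.5 CPM, PDGFRB at 3.65 to 8.78 and COL3A1 at 0 to 3.76. Like FOS, JUN, EGR1 and IER2, COL1A1 and PDGFRB were lowest with TEAD4-S and highest in the library labelled YAP/RBM4. COL3A1 was instead lowest with YAP and highest with TEAD4-FL. No interval is given for these low levels. VIM-AS1, the antisense neighbour of VIM, stood at 9952 to 19479 CPM against 253 to 517 CPM for VIM itself, and the count columns carry the words second strand in their names, but no source used here says how strand was set in counting. What part any of these had in the results below was not tested.

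The promoter sequences of 9 of the 10 genes were at hand from RefSeq (GRCh38.p14), all but that of FOSL1, with 2 starts for ATF3. The 250 bases before the start are printed for 5 genes, EGR1, JUN, JUNB and FOS because their levels differed most between libraries among the well-counted members, and JUND because it differed little. Capitals mark matches, on either strand, to the CArG box that serum response factor binds, to the full cyclic AMP response element TGACGTCA (CRE) and to its core TGACG or CGTCA.
EGR1, chr5:138465229-138465478, plus strand: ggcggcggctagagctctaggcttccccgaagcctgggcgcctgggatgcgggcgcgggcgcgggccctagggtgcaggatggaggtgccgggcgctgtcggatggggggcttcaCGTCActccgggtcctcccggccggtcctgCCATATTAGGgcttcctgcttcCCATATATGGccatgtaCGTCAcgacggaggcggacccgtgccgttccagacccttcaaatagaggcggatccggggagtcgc
FOS, chr14:75278578-75278827, plus strand: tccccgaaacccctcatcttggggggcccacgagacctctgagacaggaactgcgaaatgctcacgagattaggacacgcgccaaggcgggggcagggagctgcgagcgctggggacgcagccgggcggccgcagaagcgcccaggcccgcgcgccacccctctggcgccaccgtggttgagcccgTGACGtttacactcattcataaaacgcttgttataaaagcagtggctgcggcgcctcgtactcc
JUN, chr1:58784048-58784297, minus strand: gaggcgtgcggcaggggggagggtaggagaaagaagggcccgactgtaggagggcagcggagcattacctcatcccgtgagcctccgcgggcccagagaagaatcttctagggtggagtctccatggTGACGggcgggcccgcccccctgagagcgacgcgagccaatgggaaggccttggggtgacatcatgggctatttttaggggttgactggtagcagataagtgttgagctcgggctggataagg
JUNB, chr19:12791236-12791485, plus strand: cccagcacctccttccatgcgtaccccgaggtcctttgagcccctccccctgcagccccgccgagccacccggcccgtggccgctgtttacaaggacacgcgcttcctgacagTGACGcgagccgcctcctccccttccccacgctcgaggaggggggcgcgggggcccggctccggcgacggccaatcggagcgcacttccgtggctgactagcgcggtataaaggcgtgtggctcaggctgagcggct
JUND, chr19:18281623-18281872, minus strand: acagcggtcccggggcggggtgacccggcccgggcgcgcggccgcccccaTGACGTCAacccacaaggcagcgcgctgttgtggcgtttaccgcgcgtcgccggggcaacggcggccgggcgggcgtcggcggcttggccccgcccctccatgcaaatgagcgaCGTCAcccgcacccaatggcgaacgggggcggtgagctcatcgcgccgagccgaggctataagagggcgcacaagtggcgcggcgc

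EGR1 carried 2 CArG boxes, at positions -105 to -96 and -83 to -74 from the start. It was the only one of the 9 genes with such a match in these windows. Of 35116 RefSeq promoters of the same length, 1.16% had a CArG box. JUND carried the only full CRE, at positions -200 to -193 (1.65% of all promoters). The CRE core was present in the windows of 8 of the 9 genes and in 21.2% of all promoters. The windows of the 2 ATF3 starts lacked it, and any other ATF3 start was not searched. The core was added to the search after these sequences had been read, and in JUND it overlaps the full CRE. None of the 9 held an exact match to an AP-1 site (TGAGTCA or TGACTCA, in 4.2% of all promoters), a TEAD site (GGAATG or its complement, 11.9%) or an EGR site (GCGTGGGCG or its complement, 0.72%) in these windows. Only these letters were searched. Near variants, such as TGACATCA in the windows of JUN and ATF3, were not counted, so sites of other spelling are not excluded. These are matches of letters, not measured binding.

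In these counts the members differed widely from each other in level. How far the levels are those of the members' own sense RNA depends on the strand setting in counting, which is not known. Per kilobase of the canonical transcript, the mean level over the 5 libraries was 42.9 CPM for IER2, 38.7 for JUNB, 29.2 for JUND, 24.9 for FOSL1, 24.6 for JUN, 14.9 for EGR1, 9.22 for FOS, 7.88 for FOSL2, 3.23 for ATF3 and 0.412 for FOSB. IER2 lay at percentile 88.3 of mean CPM among the 15024 genes that averaged 1 CPM or more and FOSB at percentile 5.84. All 10 members passed that filter. Orders of libraries and shares of all genes given below are on library totals. Counts of members under other scalings therefore have no share of all genes beside them.

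JUN (chromosome 1, 59242517 to 59249720 of hg19, minus strand, a gene with 1 exon) encodes the founding Jun subunit. Its level was 106 CPM in vector, 53.6 in YAP, 66.8 in TEAD4-FL, 51.4 in TEAD4-S and 122 in YAP/RBM4, resting on 75 to 320 counts. The vector and YAP/RBM4 libraries stood together above the other 3, and no counting interval of the upper pair met one of the lower 3. Against vector, JUN was 0.506 times (0.385 to 0.660) with YAP, 0.630 times (0.512 to 0.776) with TEAD4-FL and 0.485 times (0.393 to 0.598) with TEAD4-S. In the library labelled YAP/RBM4 it was 1.15 times (0.971 to 1.37), within counting error of vector.

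JUNB (chromosome 19, 12902300 to 12904129, plus strand, 1 exon) encodes a Jun protein that activates transcription less strongly than JUN on many AP-1 sites. It stood at 103 CPM in vector, 57.9 in YAP, 59.2 in TEAD4-FL, 38.5 in TEAD4-S and 95.4 in YAP/RBM4. The same pair of libraries was high, and TEAD4-S was the lowest, at 0.664 times its neighbour YAP (0.496 to 0.894), or 0.831 times (0.620 to 1.12) with TMM, the method of edgeR that centres the bulk of the genes. Against vector the ratios were 0.562 (0.430 to 0.728) with YAP, 0.575 (0.462 to 0.713) with TEAD4-FL and 0.373 (0.296 to 0.470) with TEAD4-S. With TMM the last was 0.459 (0.364 to 0.578). Of the JUNB exon, 14.2% lies opposite exons of HOOK2, whose own level was 4.29 to 9.93 CPM, far below that of JUNB in every library. Whether the counting kept reads of HOOK2 out of the JUNB row depends on its strand setting, which is not known. The low HOOK2 count therefore cannot decide it.

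JUND (chromosome 19, 18390504 to 18392432, minus strand, 1 exon), the Jun protein that most cells make steadily, varied little. It stood at 58.7 CPM in vector, 46.4 in YAP, 55.9 in TEAD4-FL, 52.3 in TEAD4-S and 68.3 in YAP/RBM4. Each of the 4 intervals of its ratio to vector included 1, among them that for YAP, 0.791 (0.577 to 1.07). The largest difference between any 2 libraries was 1.47 times (1.10 to 1.99), for YAP/RBM4 over YAP.

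FOS (chromosome 14, 75745529 to 75748933, plus strand, 4 exons) encodes the classical partner of JUN and was present at lower levels, on 23 to 79 counts. It stood at 22.8 CPM in vector, 16.4 in YAP, 18.8 in TEAD4-FL, 8.82 in TEAD4-S and 30.2 in YAP/RBM4. The TEAD4-S library was the lowest, at 0.387 times vector (0.236 to 0.640), or 0.476 times (0.290 to 0.787) with TMM. The order of the other 4 libraries was not resolved between neighbours, and the ratio with YAP, 0.722 (0.418 to 1.20), and with TEAD4-FL, 0.825 (0.536 to 1.26), included 1.

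FOSB (chromosome 19, 45971253 to 45978437, plus strand, 4 exons), a Fos gene known for induction in stimulated cells, was almost absent. It had 4 counts in vector, 0 in YAP, 6 in TEAD4-FL, 0 in TEAD4-S and 9 in YAP/RBM4, that is 1.84, 0, 2.5, 0 and 3.44 CPM. The limit that a count of 0 allows, 3 counts, was 2.14 CPM in the shallow YAP library and 0.995 CPM in TEAD4-S. FOSB in the library labelled YAP/RBM4 was therefore at least 1.60-fold higher than in YAP and at least 3.45-fold higher than in TEAD4-S on the limit per library. With the counting error of its own 9 counts included, the exact lower limits were 1.05 (0.963 with TMM) and 2.27 (1.66 with TMM). A difference from vector was not detectable at this depth in any line.

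FOSL1 (chromosome 11, 65659520 to 65668044, minus strand, 4 exons) encodes FRA-1, the Fos protein of many invasive carcinoma cells, and its order of libraries was unlike that of the other members. It was lowest in vector, at 32.2 CPM, and stood at 39.3 in YAP, 47.1 in TEAD4-FL, 35.8 in TEAD4-S and 57.6 in YAP/RBM4. The ratio to vector was 1.47 (1.08 to 2.01) with TEAD4-FL and 1.79 (1.34 to 2.42) for the library labelled YAP/RBM4, both above 1, and with TMM they were 1.37 (1.01 to 1.88) and 1.61 (1.20 to 2.17). It was 1.22 (0.841 to 1.77) with YAP and 1.11 (0.816 to 1.53) with TEAD4-S, the latter 1.37 (1.00 to 1.88) with TMM.

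FOSL2 (chromosome 2, 28615315 to 28640184, plus strand, 4 exons), which encodes FRA-2, had the narrowest range of the 10. It stood at 58.7 CPM in vector, 60 in YAP, 44.6 in TEAD4-FL, 42.4 in TEAD4-S and 58.8 in YAP/RBM4. Both TEAD4 libraries were the lower ones, at 0.760 times vector (0.582 to 0.991) for the full-length and 0.723 times (0.561 to 0.932) for the short isoform. With TMM the short isoform's ratio was 0.889 (0.690 to 1.15), so that only TEAD4-FL, at 0.711 (0.544 to 0.927), remained below 1.

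ATF3 (chromosome 1, 212738676 to 212794119, plus strand, 4 exons) encodes a stress-induced zipper protein that pairs with Jun proteins and often represses. It had 14, 2, 19, 12 and 30 counts in the order vector, YAP, TEAD4-FL, TEAD4-S, YAP/RBM4, or 6.53, 1.43, 7.93, 3.98 and 11.5 CPM. The YAP library stood lowest and YAP/RBM4 highest. The ratio of YAP to vector was 0.219 with a wide interval of 0.0242 to 0.953, and that of YAP/RBM4 to YAP was 8.01 (2.03 to 69.2).

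EGR1 (chromosome 5, 137801168 to 137804992, plus strand, 2 exons), a zinc finger factor and a standard read-out of ERK and serum response factor activity, had the widest range of the members above 10 CPM apart from FOS. Its level was 59.2 CPM in vector, 27.2 in YAP, 39.5 in TEAD4-FL, 25.1 in TEAD4-S and 82.5 in YAP/RBM4, on 38 to 216 counts. Vector and YAP/RBM4 were again the high pair, and here YAP/RBM4 also stood above vector, at 1.39 times (1.11 to 1.75). The ratio to vector was 0.459 (0.310 to 0.664) with YAP, 0.667 (0.508 to 0.880) with TEAD4-FL and 0.424 (0.316 to 0.570) with TEAD4-S. The last was 0.521 (0.389 to 0.701) with TMM.

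IER2 (chromosome 19, 13261225 to 13265725, plus strand, 2 exons), an immediate early gene whose product acts in the nucleus, was the most abundant member and had the same order of libraries with smaller ratios. It stood at 102 CPM in vector, 70.7 in YAP, 91.4 in TEAD4-FL, 61.7 in TEAD4-S and 127 in YAP/RBM4. Its ratio to vector with YAP, 0.696 (0.543 to 0.887), and with TEAD4-S, 0.607 (0.496 to 0.742), lay below 1, but it was 0.899 (0.742 to 1.09) with TEAD4-FL. In the library labelled YAP/RBM4 it was 1.25 (1.05 to 1.49), or 1.12 (0.945 to 1.34) with TMM. Of its exon bases, 44.8% lie opposite exons of an antisense gene, and how far the counting kept the reads of the 2 genes apart depends on its strand setting, which is not known beyond the words second strand in the column names.

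**Figure D1:**
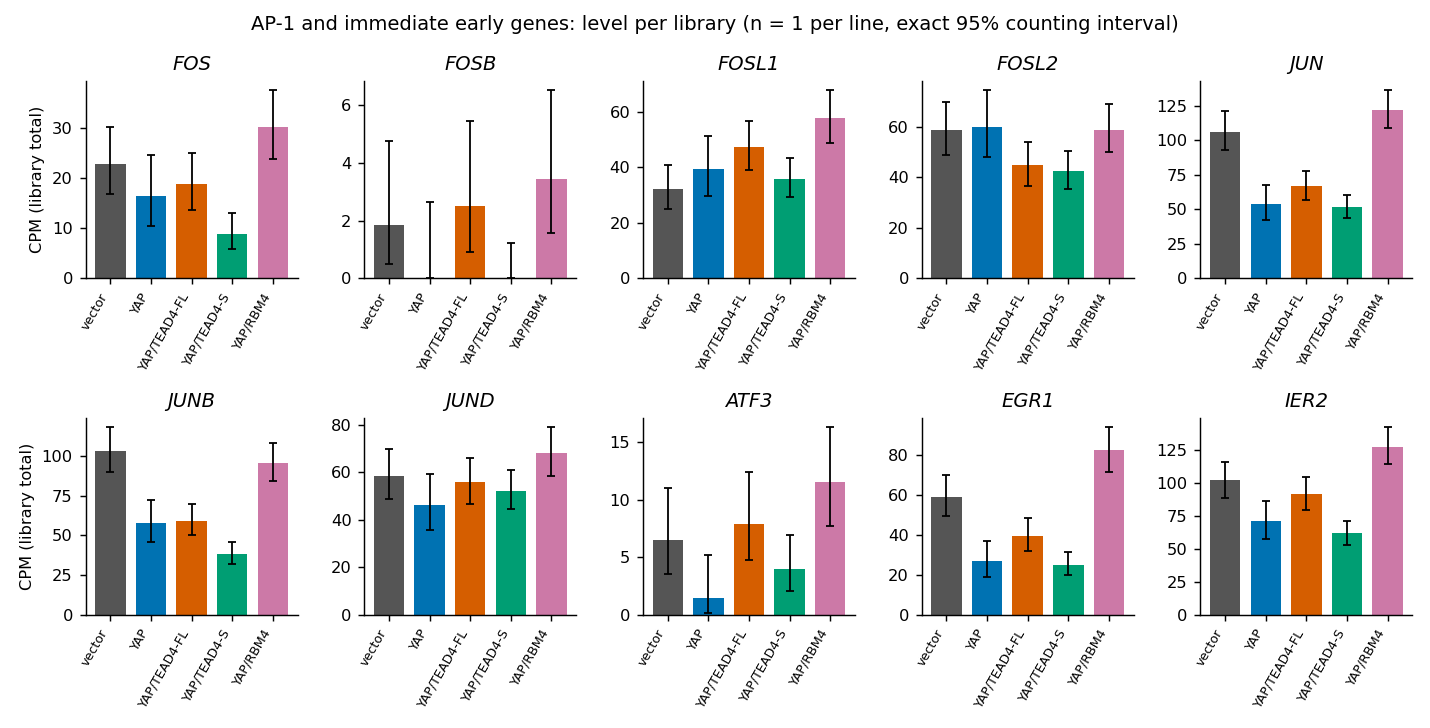
Level of each member in CPM of the library total (vertical axis, from 0, with its own scale in each panel) in the 5 libraries, 1 bar per library with its exact 95% counting interval. JUN, JUNB, EGR1 and IER2 are highest in vector and YAP/RBM4, FOSL1 is lowest in vector at 32.2 CPM, and FOSL2 and JUND are nearly level.

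The first comparison sets YAP alone against vector. JUN, JUNB and EGR1 were at 0.459 to 0.562 times their vector level, IER2 at 0.696 times and ATF3 at 0.219 times, each with an interval below 1, while FOSL1, FOSL2, JUND, FOS and FOSB had intervals that included 1. After 0.5 CPM was added to both levels, 3 of the 10, FOSB, ATF3 and EGR1, were at least 2-fold lower and 0 were 2-fold higher, against 9.57% and 4.9% of all 15024 genes. FOSB and ATF3 rest on 0 and 2 counts in the YAP library. By the interval alone, 5 of 10 were lower and 0 higher, against 7.41% and 8.68% of all genes. On the log2 scale the members' median ratio was -0.67, beside 0.00 for all genes.

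With TEAD4-FL the same Jun and EGR1 transcripts were lower than in vector by smaller steps, and FOSL1 was higher. JUN, JUNB and EGR1 were at 0.575 to 0.667 times vector and FOSL2 at 0.760 times. None of the 10 reached 2-fold in either direction, against 8.9% of all genes higher and 6% lower. By the interval, 4 were lower (FOSL2, JUN, JUNB and EGR1) and FOSL1 was higher, against 8.69% and 13.1% of all genes. The members' median log2 ratio was -0.21, beside 0.09 for all genes.

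FOS, FOSL2, JUN, JUNB, EGR1 and IER2 had their lowest level of the 5 libraries with TEAD4-S on library totals, and FOS and JUNB also with TMM, where JUN, EGR1 and IER2 were lowest with YAP and FOSL2 with TEAD4-FL. FOS, FOSB, JUN, JUNB and EGR1, 5 of the 10, were at least 2-fold lower than in vector and 0 were higher, against 11% and 3.5% of all genes. FOSB, on 0 against 4 counts, had an interval that included 1. By the interval 6 were lower, those of FOS, FOSL2, JUN, JUNB, EGR1 and IER2, and 0 higher, against 24.4% and 2.84% of all genes. The bulk of the genes also lay lower in this library, with an all-gene median of -0.29 on the log2 scale, beside -0.88 for the members. With TMM the intervals of FOS, JUN, JUNB, EGR1 and IER2 stayed below 1, and JUN was at 0.597 times vector (0.484 to 0.736). On that scaling 3 members (FOS, FOSB and JUNB) were 2-fold lower, and the share of all genes was not computed.

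In the library labelled YAP/RBM4 the 3 Jun genes stood within counting error of vector, and FOSL1, EGR1 and IER2 stood above it, on library totals. None of the 10 was 2-fold higher or lower, against 9.22% and 3.47% of all genes. By the interval 3 were higher, FOSL1, EGR1 and IER2, and 0 lower, against 14.9% and 7.02% of all genes, and with TMM FOSL1 and EGR1 stayed above 1, EGR1 at 1.25 times with a lower bound of 1.00. With DESeq2 size factors FOSL1 alone stayed above 1, EGR1 was at 1.23 times (0.985 to 1.55), and JUNB was below 1 at 0.819 times (0.681 to 0.987). The members' median log2 ratio was 0.36, beside 0.17 for all genes. These 4 comparisons share the vector library, so its own level of each gene enters all of them.

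**Figure D2:**
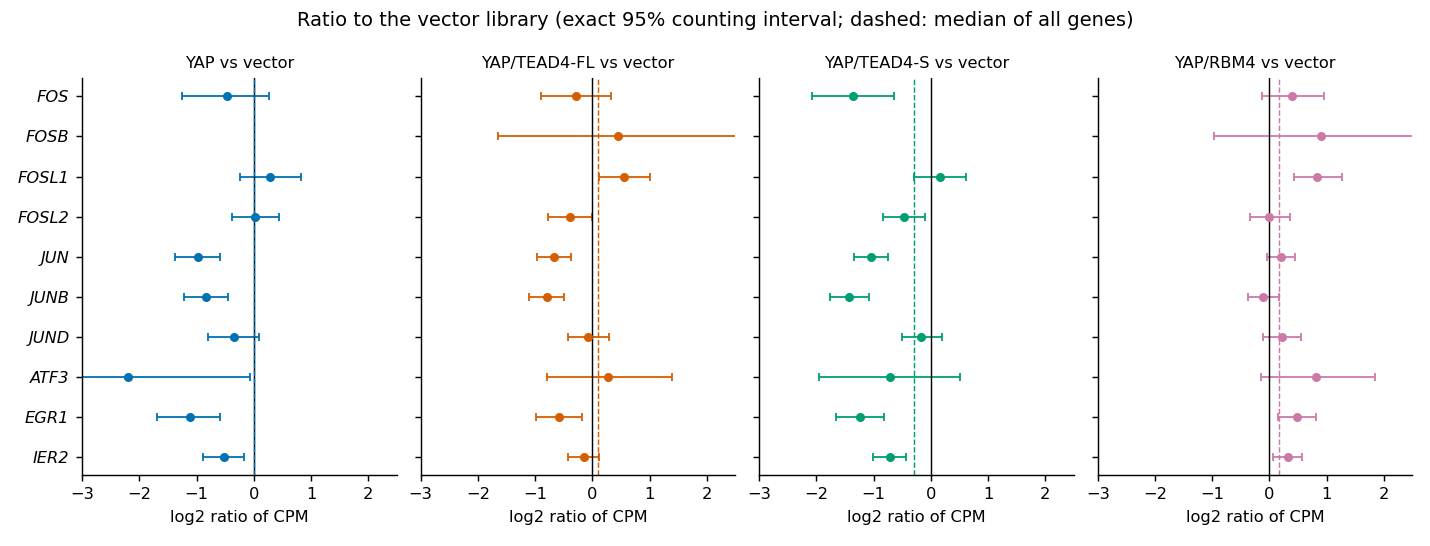
Log2 ratio of CPM of each member to the vector library (horizontal axis, cut at -3 and 2.5), 1 panel per line, with exact 95% counting intervals and the median of all genes as a dashed line. JUN, JUNB and EGR1 lie left of 0 in the first 3 panels, FOSL1 lies right of it with TEAD4-FL and YAP/RBM4, and a member at 0 counts has no point.

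The comparison of the short with the full-length isoform, both with YAP, asks how the isoforms differ. On library totals FOS was 0.470 times (0.285 to 0.785), EGR1 0.635 times (0.464 to 0.869), JUNB 0.649 times (0.504 to 0.836), IER2 0.675 times (0.552 to 0.825) and JUN 0.770 times (0.613 to 0.967) as high with TEAD4-S. JUND was 0.936 times (0.740 to 1.19) and FOSL2 0.951 times (0.730 to 1.24). FOS and FOSB, 2 of the 10, were at least 2-fold lower and 0 were higher, against 11.2% and 2.22% of all genes, and by the interval 7 were lower and 0 higher, against 30.8% and 1.49%. The median of all genes was itself -0.38 on the log2 scale, beside -0.59 for the members. With TMM, which takes that shift out, the ratio of JUN was 1.01 (0.807 to 1.27), that of EGR1 0.835 (0.610 to 1.14) and that of FOS 0.618 (0.374 to 1.03). Under that scaling FOSB alone, at 0 against 6 counts, had an interval below 1, so the other differences between the isoforms depend on how the libraries are scaled.

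**Figure D3:**
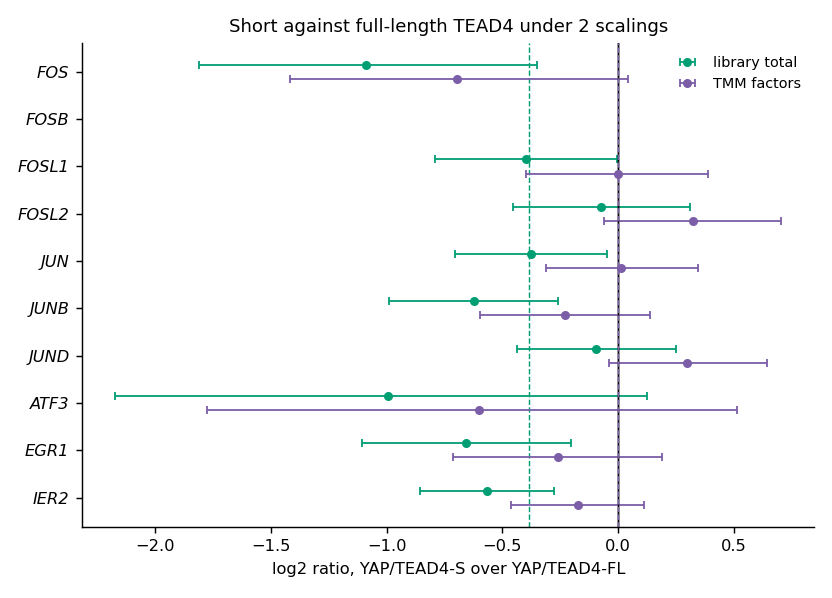
Log2 ratio of TEAD4-S over TEAD4-FL for each member (horizontal axis) on library totals (green) and with TMM factors (violet), with exact 95% counting intervals and the all-gene median of each scaling as a dashed line. On TMM factors every interval drawn includes 0, and FOSB has no point because it had 0 counts in TEAD4-S.

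Set against YAP alone, the partners differed. In the library labelled YAP/RBM4, JUN was 2.28 times its YAP level (1.77 to 2.97), EGR1 3.04 times (2.14 to 4.41), FOS 1.84 times (1.14 to 3.06), IER2 1.80 times (1.43 to 2.27) and JUNB 1.65 times (1.28 to 2.15). FOSB, JUN, ATF3 and EGR1, 4 of the 10, were at least 2-fold higher and 0 lower, against 13.3% and 2.94% of all genes. By the interval 9 of 10, all but FOSL2, were higher and 0 lower, against 12.4% and 6.94%. With TMM 7 were higher and with DESeq2 size factors 6, and the shares of all genes under these scalings were not computed. With TEAD4-FL, 2 of the 10, FOSB and ATF3, were 2-fold higher and 0 lower, against 11.6% and 3.94%. FOSB had 6 against 0 counts there, with an interval that included 1. JUN and EGR1 stood at 1.25 times (0.941 to 1.66) and 1.46 times (0.992 to 2.19). With TEAD4-S only ATF3, on 12 against 2 counts, was 2-fold higher, with an interval (0.62 to 25.6) that included 1, and 0 were lower, against 6.1% and 8.62%, with JUN at 0.959 times (0.724 to 1.28) and EGR1 at 0.924 times (0.621 to 1.41). On library totals FOS, at 0.537 times (0.301 to 0.995), FOSL2, at 0.707 times (0.533 to 0.943), and JUNB, at 0.664 times, had intervals below 1, but with TMM none of the 10 did and JUND was above 1, at 1.41 times (1.05 to 1.91). The 3 ratios share the YAP library, the shallowest of the 5.

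The other genes of the pathway were read from lists by role. Of 34 other immediate early genes, 28 passed the filter, and 0 were 2-fold higher and 7 lower with YAP, 1 and 4 with TEAD4-FL, 0 and 5 with TEAD4-S, and 7 and 0 for the library labelled YAP/RBM4. The shares of all genes, higher and lower, were 4.9% and 9.57%, 8.9% and 6%, 3.5% and 11%, and 9.22% and 3.47% in the same order, and nothing particular to the list or to those that follow is read from the counts. After the all-gene median was subtracted, the list's median log2 ratio to vector was -0.45, -0.45, -0.47 and 0.21 in that order. The members lay at -0.67, -0.31, -0.59 and 0.19, so their shift was not particular to them. CYR61, a secreted matrix protein and a textbook YAP target, stood at 82.5 CPM in vector, 114 in YAP, 92.6 in TEAD4-FL, 120 in TEAD4-S and 243 in YAP/RBM4. It was thus 1.38 times vector (1.10 to 1.72) with YAP, where JUN and EGR1 were lower, and 2.94 times (2.48 to 3.49) for the library labelled YAP/RBM4. CTGF, also a YAP target, had another pattern. From real-time PCR in H157 and A549 cells, the paper reports that YAP activated CTGF and that TEAD4-S or RBM4 lessened this. In the counts here CTGF stood at 65.2 CPM in vector, 69.4 in YAP, 27.4 in TEAD4-FL, 66.7 in TEAD4-S and 89.7 in YAP/RBM4. It was thus near its vector level with YAP and higher for YAP/RBM4 than for YAP, and no interval is given for it. GADD45A and GADD45B, growth-arrest genes of the stress response, were 2.53 times (1.70 to 3.84) and 2.74 times (1.86 to 4.12) vector in the library labelled YAP/RBM4. IER5, a further member of the early response, went the other way there, at 0.620 times (0.456 to 0.840), and stood at 0.407 times (0.291 to 0.567) with TEAD4-S.

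Of 18 genes known as targets of AP-1, 14 passed the filter. With YAP 2 were 2-fold lower, with TEAD4-FL 4, with TEAD4-S 5 and for the library labelled YAP/RBM4 1, beside 9.57%, 6%, 11% and 3.47% of all genes, and 0 were 2-fold higher in any line. Their median log2 ratio to vector, with the all-gene median subtracted, was -0.39, -0.81, -0.56 and 0.05 in the same order. IL6, an inflammatory cytokine, stood at 116 CPM in vector, 41.4 in YAP, 15 in TEAD4-FL, 18.9 in TEAD4-S and 53.8 in YAP/RBM4. It was lower than in vector in all 4 lines, from 0.130 times (0.0889 to 0.185) with TEAD4-FL to 0.466 times (0.376 to 0.575) for the library labelled YAP/RBM4. CXCL8, which encodes the chemokine interleukin-8, had the same order of libraries as JUN and EGR1, with 107, 30.0, 36.6, 28.5 and 126 CPM in the order vector, YAP, TEAD4-FL, TEAD4-S, YAP/RBM4. Its ratio to vector was 0.280 (0.196 to 0.390) with YAP and 1.17 (0.987 to 1.39) for the library labelled YAP/RBM4. VEGFA, an angiogenic growth factor, was lowest with TEAD4-S, at 0.397 times vector (0.327 to 0.481).

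Among 11 companions of ATF3 in the stress response, of which 10 passed the filter, 1 was 2-fold lower with each of YAP, TEAD4-FL and TEAD4-S, a share near that of all genes (9.57%, 6% and 11%), and 0 were 2-fold higher than vector in any line. As a list they still lay low. With the all-gene median subtracted, their median log2 ratio to vector was -0.61 with YAP, -0.62 with TEAD4-FL, -0.34 with TEAD4-S and 0.19 for YAP/RBM4. ATF4, the translation-controlled factor upstream of this response, was 1.73 times vector (1.44 to 2.09) and DDIT4, an inhibitor of mTORC1, 1.60 times (1.32 to 1.95) for the library labelled YAP/RBM4. Both were below vector with TEAD4-S, at 0.733 times (0.589 to 0.911) and 0.596 times (0.471 to 0.754), but with TMM at 0.901 and 0.733 times. CEBPB, a zipper factor outside AP-1, was lower than vector in all 4 lines, from 0.571 times (0.502 to 0.648) with TEAD4-FL to 0.849 times (0.759 to 0.949) for the library labelled YAP/RBM4.

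The remaining zipper genes and the factors upstream lay nearer to the all-gene median than the members in the first 3 lines. Of 11 other AP-1 and small MAF genes 8 passed the filter, and their median log2 ratio to vector lay between -0.17 and -0.03 after the all-gene median was subtracted. Of the 8, 0 were 2-fold higher and 1 lower with YAP, 1 and 0 with TEAD4-FL, 1 and 3 with TEAD4-S, and 1 and 2 for YAP/RBM4. JDP2, a repressor that pairs with Jun proteins, was 0.658 times vector (0.525 to 0.826) with TEAD4-FL and 0.95 times (0.744 to 1.20) with YAP. All 20 upstream factors and kinases passed the filter, with medians of -0.18 to 0.15 on that scale. Of these, 0 were 2-fold higher and 1 lower with YAP, 1 and 0 with TEAD4-FL, 1 and 0 with TEAD4-S, and 3 and 0 for YAP/RBM4. The 12 genes of ERK feedback had medians of 0.05 to 0.26 and gave 2 higher and 2 lower with YAP, 3 and 1 with TEAD4-FL, 2 and 1 with TEAD4-S, and 4 and 0 for YAP/RBM4. The shares of all genes, higher and lower, were 4.9% and 9.57%, 8.9% and 6%, 3.5% and 11%, and 9.22% and 3.47% in the same order. The median of the 10 housekeeping genes lay above the all-gene median, by 0.24 to 0.56, in all 4 lines against vector, with 6 of the 10 above it for YAP, 10 for TEAD4-FL and TEAD4-S and 9 for YAP/RBM4. ACTB stood at 512 CPM in vector and 771 to 960 elsewhere, but EEF1A1 at 800 CPM in vector, 647 in YAP and 724 in TEAD4-S. The part of this in the ratios to vector was not tested.

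The genes whose pattern was most like that of a member were sought among the 8305 genes that averaged 10 CPM or more, by the Euclidean distance over the 4 log2 ratios to vector. For EGR1 the nearest were STC2, a secreted glycoprotein hormone, at a distance of 0.240, PLD3 at 0.349 and JUN, itself a member, at 0.366. STC2 stood at 126, 67.9, 85.1, 55.7 and 166 CPM in the order vector, YAP, TEAD4-FL, TEAD4-S, YAP/RBM4. For FOS they were PTPRM, a receptor tyrosine phosphatase, at 0.301, UBR4 at 0.321 and PODNL1 at 0.326. The distances rest on 1 library per line and on the vector library that all 4 ratios share.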

How the data were processed

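RNA was sequenced from 5 stable H157 lines, with 1 library per line, assigned to the lines from the sample titles. The expected counts per gene that the authors deposited came from RSEM with Bowtie2, to which the submitters' notes give version 2.2.5, on hg19. They are estimates and unscaled. PolyA RNA, a Total RNA kit and Ribo-Zero are all named in the methods, which leaves the RNA selection uncertain.

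CPM were scaled to the library total of these expected counts. Log2 ratios used a pseudocount of 0.5 CPM. Genes that averaged 1 CPM or more (15024 of 25343) were compared, and a gene was called at 2-fold or more. Rounded counts gave exact 95% intervals, Clopper-Pearson for ratios and Poisson for levels. With 1 library per line no test was run. TMM factors came from edgeR (version 4.0.16) and size factors from DESeq2 (version 1.42.0) in R (version 4.3.3). The scripts ran in Python 3.11.15 with numpy 2.4.6, pandas 2.3.3, scipy 1.17.1 and matplotlib 3.10.9 and were tested on simulated counts. Coordinates and exon overlaps are those of GENCODE release 44 lifted to hg19, and promoters are those of RefSeq.

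The members, gene lists and comparisons were chosen with earlier results of these data known. From each list, up to 4 genes with the largest change and a mean of 10 CPM or more could be named. CTGF was named outside that rule, beside CYR61. IL8 was matched to CXCL8 through RefSeq synonyms. The authors' EBSeq calls were not repeated. Some genes of the lists are not reported here.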

Additional observations from a re-analysis of the deposited data

How the results depend on the processing

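Of 90 alternative counts of members past 2-fold, 72 stayed within 1.5 times the count given. Most of the 72 were counts of 0 that stayed 0, so they say little of stability. Taking off the filter could change no count, since all 10 members passed it. Of 340 alternative ratios of single members 324 did not move beyond their counting interval and 13 moved beyond it. The other 3 reversed, that is, changed sign where the interval had excluded no difference. A further 24, whose interval had included no difference, also changed sign, and 23 of all sign changes at 2 decimals were in comparisons of YAP/TEAD4-S. For YAP/TEAD4-S against vector, the 5 members lower became 3 with TMM factors, 3 with DESeq2 size factors and 3 on totals without the 50 most abundant genes. For YAP/TEAD4-S against YAP/TEAD4-FL, the 2 lower became 1 with each of these scalings, with a pseudocount of 2 CPM and with a filter at 10 CPM, but 5 at 1.5-fold and 7 by the counting interval. In that comparison JUN reversed to 0.02 on the log2 scale with TMM and with DESeq2, and FOSL1 to 0.00 with DESeq2. For YAP against vector, the 3 lower became 1 with a filter at 10 CPM, 5 at 1.5-fold and 5 by the counting interval. For YAP/TEAD4-FL against vector, 0 lower became 2 at 1.5-fold and 4 by the interval, and 0 higher became 1 by the interval. For YAP/RBM4 against vector, 0 higher became 3 at 1.5-fold and 3 by the interval. TMM and DESeq2 take out the all-gene shift of YAP/TEAD4-S (-0.29 against vector on the log2 scale) and that of YAP/RBM4 (0.17), while fold thresholds and filters change what is counted. Shares of all genes were computed on library totals only, at 2-fold and by the interval. The other counts in this section have no share to be read against. No library could be left out, since each line has 1, and no paired analysis was possible because each line has 1 library. Depth limits FOSB and ATF3, which had at most 9 and 30 counts.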
